A study of Homo sapiens with 6 samples.

Results

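The ephrins with their EPH receptors, and the semaphorins with their plexin and neuropilin receptors, are the cell-contact and guidance genes described here in OVCAR3, a human cell line grown from an ovarian cancer. They were taken by name from the protein-coding genes of the deposited table, and 49 of 15761 protein-coding genes matched, out of 27104 genes in all. These were 13 EPH receptors, 7 ephrins, 19 semaphorins, 8 plexins and 2 neuropilins. Poly-A RNA was sequenced from cells at passages 20 to 25, with 3 libraries from cells transfected with an empty vector and 3 from cells transfected with a vector for DAB2IP overexpression, labelled DAB2IP O/E and called O/E-labelled below. DAB2IP is a Ras GTPase-activating scaffold protein. All libraries came from this single line. The sources used here do not give the vector's promoter or the time after transfection. The labels do not say that the cultures were separate, so the p-values speak of the spread among 6 libraries, which may be technical.

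Ephrins are ligands held on the cell surface that bind EPH receptor tyrosine kinases on a neighbouring cell, and signals can run into both cells. A-class ephrins are tied to the membrane by a lipid anchor and B-class ephrins span it. Semaphorins are secreted or membrane-bound ligands of plexins, whose intracellular part acts on small GTPases. Most secreted class 3 semaphorins need a neuropilin as co-receptor. Both systems were first known for steering axons and also act in epithelial adhesion, vessel growth and tumour cell movement.

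Expression was given as FPKM, that is fragments scaled by gene length and library size. Levels could therefore be compared between genes. Whole reads recovered from the FPKM ran from 20445867 to 35434533 per library. DAB2IP went against the labels, with 7.49, 7.76 and 8.01 FPKM in the empty vector libraries and 5.74, 5.02 and 5.73 FPKM in the O/E-labelled ones. On log2(FPKM + 1) it changed by −0.43 (SE 0.06, adjusted p 0.00548 from limma with Benjamini-Hochberg adjustment over all genes tested). Directions below are therefore those of libraries with less, not more, measured DAB2IP. Every limma adjusted p below comes from the same fit unless an alternative is named.

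Of the 13 semaphorins tested, 7 rose in the O/E-labelled libraries, and of the 6 plexins and neuropilins tested, 2 fell. SEMA5B, SEMA3A, SEMA4B, SEMA5A, SEMA3C, SEMA4F and SEMA4G rose, while the plexin PLXND1 and the neuropilin NRP2 fell. Of the ephrin system, the receptor EPHA3 and the ligand EFNA1 rose, and the ligand EFNB2 fell. The calls of NRP2, SEMA4F, SEMA4G, EFNA1 and EFNB2 were lost in some of the alternative fits. Of the 49 genes, 33 reached the filter, a mean over the 6 libraries of 1 FPKM or more. At a limma adjusted p under 0.05, 9 of the 33 rose, 3 fell and 21 did not pass, so 36.4% passed. EPHA3 is in this count although it reached the filter only through the O/E-labelled libraries, in which it was high. Its rise is therefore no support for a change of the set. Of all 14761 genes tested, 18.5% passed, 9.29% upward and 9.17% downward. Of the protein-coding genes tested, 19.9% passed. The median log2 change was 0.08 for the 33 genes and −0.00042 for all genes tested. In bulk RNA, a change in the share of cells that express a gene cannot be told apart from a change in RNA per cell. With library medians set equal, 7 of the 33 rose and 5 fell, while 1165 of all 14761 genes tested rose and 1686 fell. The count of 12 was 8 without the first O/E-labelled library and 7 without either the third O/E-labelled or the second empty vector library. Over all genes tested, the 2725 calls fell in these 3 fits to 1309, 971 and 1214.

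**Figure D1:**
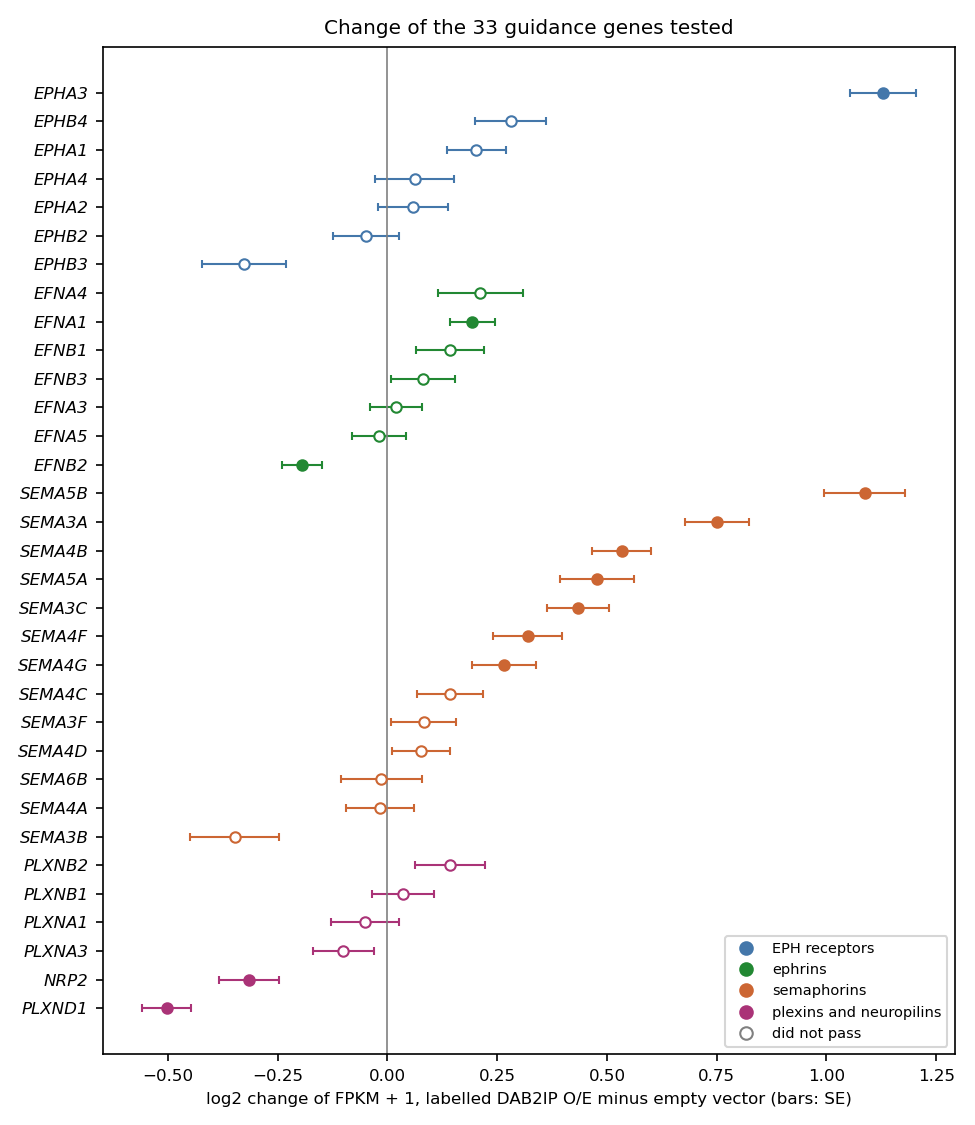
Log2 change of FPKM + 1 (x axis, O/E-labelled libraries minus empty vector) for the 33 genes tested, grouped by role, with bars of 1 SE. Filled points passed at an adjusted p under 0.05 and open points did not; SEMA5B and EPHA3 lie farthest to the right and PLXND1 farthest to the left.

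Genes were eligible for display of sequence if they passed and had a single start in the RefSeq promoter table (GRCh38.p14). The stretches before the start of 4 of them are shown, those with the 2 largest rises and the 2 largest falls on the log2 scale. Each is the 250 bases before the start, 5′ to 3′ on the gene's strand, with capitals at each GC box (GGGCGG, on either strand). The window of EPHA3 is chr3:89107371-89107620 on the plus strand and that of SEMA5A is chr5:9546076-9546325 on the minus strand. That of PLXND1 is chr3:129606677-129606926 on the minus strand and that of NRP2 is chr2:205682251-205682500 on the plus strand.
EPHA3: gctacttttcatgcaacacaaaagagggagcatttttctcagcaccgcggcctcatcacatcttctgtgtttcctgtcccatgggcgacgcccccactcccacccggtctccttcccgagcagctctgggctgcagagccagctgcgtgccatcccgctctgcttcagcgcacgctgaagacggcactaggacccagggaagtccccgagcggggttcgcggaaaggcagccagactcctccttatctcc
SEMA5A: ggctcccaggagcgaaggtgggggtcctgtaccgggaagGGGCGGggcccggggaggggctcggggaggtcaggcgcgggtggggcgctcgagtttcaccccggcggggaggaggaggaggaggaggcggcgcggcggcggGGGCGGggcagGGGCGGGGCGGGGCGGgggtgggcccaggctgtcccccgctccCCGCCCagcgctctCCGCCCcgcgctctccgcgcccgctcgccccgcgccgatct
PLXND1: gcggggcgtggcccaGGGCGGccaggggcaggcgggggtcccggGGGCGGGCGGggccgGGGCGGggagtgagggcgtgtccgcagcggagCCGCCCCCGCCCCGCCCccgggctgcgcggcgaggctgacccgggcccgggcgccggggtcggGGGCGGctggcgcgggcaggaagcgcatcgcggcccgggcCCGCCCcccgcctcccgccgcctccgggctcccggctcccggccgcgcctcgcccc
NRP2: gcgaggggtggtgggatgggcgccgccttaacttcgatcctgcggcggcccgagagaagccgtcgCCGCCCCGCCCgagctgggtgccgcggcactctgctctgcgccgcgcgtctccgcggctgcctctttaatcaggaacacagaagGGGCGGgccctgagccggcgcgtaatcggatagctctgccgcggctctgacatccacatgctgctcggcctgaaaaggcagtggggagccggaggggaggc
The window of EPHA3 held no GC box, that of NRP2 held 3, that of SEMA5A 7 and that of PLXND1 9, with overlapping matches counted. Of the bases, 61.2% were G or C in EPHA3, 70.0% in NRP2, 82.0% in SEMA5A and 88.8% in PLXND1. A GC box stood in 42.6% of the 35116 promoter windows of the table. It stood in 52 of the 69 windows that the table gives for 43 of the 49 genes (75.4%). None of the 4 windows held a TATA box, searched as TATAAA on both strands, which stood in 10.7% of all windows. None held the letters CCAAT on either strand, which stood in 32.0% of all windows. The RefSeq starts of EPHA3, PLXND1 and NRP2 lie inside the gene bounds of GENCODE release 29. The windows of EPHA3 and PLXND1 thus reach into the annotated genes. That of NRP2 lies wholly inside its gene, which starts at 205681990. These matches describe letters in the windows, and binding was not measured.

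Among the semaphorins, SEMA3F, a secreted class 3 ligand, had the highest level, followed by SEMA4C and SEMA3B. SEMA3F had 16.5, 17.4 and 18.3 FPKM with empty vector and 19.9, 16.6 and 19.1 FPKM in the O/E-labelled libraries, and the groups overlapped. SEMA4C, a membrane-bound ligand of plexin B2, had 12.4, 14.4 and 14.5 FPKM against 16.1, 14.2 and 15.6 FPKM, again with overlap. Their log2 changes were 0.08 and 0.14, with limma adjusted p-values of 0.469 and 0.216. The 7 semaphorins that rose all had lower mean levels than this pair.

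SEMA5B, a membrane protein with thrombospondin repeats and a semaphorin domain, showed the largest rise of the family. The gene lies at chr3:122909193-123028605 on the minus strand (GRCh38). It had 0.837, 1.33 and 1.08 FPKM with empty vector and 3.3, 3.46 and 3.43 FPKM in the O/E-labelled libraries. The lowest of the latter stood well above the highest of the former, and the means differed 3.15-fold. The values rested on 476 reads with empty vector and 1900 in the other group. The log2 change was 1.09 (SE 0.09, limma adjusted p 0.000914). SEMA5A, its paralogue and a ligand of plexin B3, had 2.73, 3.17 and 3.32 FPKM with empty vector and 4.20, 5.13 and 4.69 FPKM in the O/E-labelled libraries. The groups did not overlap, and the log2 change was 0.48 (SE 0.08, limma adjusted p 0.0113). The summed level of both class 5 genes was 4.15 ± 0.51 FPKM with empty vector and 8.07 ± 0.55 FPKM in the O/E-labelled libraries (± SD, n = 3).

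SEMA3A, the secreted ligand that collapses growth cones through neuropilin 1 and A-class plexins, had 2.42, 2.52 and 2.51 FPKM with empty vector. It had 4.34, 5.32 and 4.95 FPKM in the O/E-labelled libraries, all above the empty vector values, a 1.96-fold difference of means. The log2 change was 0.75 (SE 0.07, limma adjusted p 0.00142). SEMA3C, a secreted ligand of neuropilins and plexin D1, had 1.72, 1.58 and 1.41 FPKM against 2.49, 2.58 and 2.34 FPKM. These groups did not overlap either, and the log2 change was 0.43 (SE 0.07, limma adjusted p 0.00837). SEMA3D, which lies beside SEMA3A, was below the filter of 1 FPKM and had 0.236, 0.343 and 0.319 FPKM with empty vector and 0.787, 0.661 and 0.724 FPKM in the O/E-labelled libraries. Its reads numbered 172 with empty vector and 529 in the other group. SEMA3A, SEMA3C and SEMA3D lie within 4.44 Mb of chromosome 7, from 80742538 to 85186855 in GRCh38. The single other gene tested in that stretch had a log2 change of −0.06 and did not pass.

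SEMA3B, a class 3 semaphorin known as a candidate tumour suppressor of chromosome 3, was lower in the O/E-labelled libraries without passing. It had 9.30, 9.04 and 9.69 FPKM with empty vector and 8.15, 5.90 and 7.49 FPKM in the O/E-labelled libraries. The groups did not overlap, but the O/E-labelled values were spread widely, with an SD of 1.16 FPKM against 0.328 FPKM. The log2 change was −0.35 (SE 0.10, limma adjusted p 0.0536). It passed in limma-voom on the recovered reads, with an adjusted p of 0.00719, and over all alternatives the adjusted p ranged from 0.00181 to 0.109. SEMA3G, the remaining class 3 gene, had 6 reads in all with empty vector and 3 in the other group.

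Of the 6 class 4 semaphorins, which span the membrane, 3 rose and 3 did not pass, while 9.29% of all genes tested rose. SEMA4B had 6.28, 5.84 and 6.42 FPKM with empty vector and 10.1, 8.60 and 9.5 FPKM in the O/E-labelled libraries. Every value of the second group lay above the first, and the log2 change was 0.53 (SE 0.07, limma adjusted p 0.00377). SEMA4F had 1.75, 1.48 and 1.92 FPKM with empty vector and 2.54, 2.26 and 2.36 FPKM in the other group, without overlap and with a log2 change of 0.32 (limma adjusted p 0.0328). SEMA4G had 4.69, 5.46 and 5.53 FPKM against 6.37, 6.13 and 6.92 FPKM, also without overlap and with a log2 change of 0.26 (limma adjusted p 0.0445). SEMA4F and SEMA4G lost their calls when any library but the third empty vector one was left out. Their limma adjusted p-values were then 0.0603 and 0.0826 without the first empty vector library and 0.0955 and 0.0837 without the second. Of the O/E-labelled libraries, leaving out the first gave 0.104 and 0.104 (limma adjusted p), the second 0.0583 and 0.0631, and the last 0.102 and 0.153. Without the filter on low levels they were 0.0699 and 0.0788, and with equal library medians SEMA4G was at 0.0563. Over all alternatives the adjusted p ran from 0.00178 to 0.104 for SEMA4F and from 0.0082 to 0.153 for SEMA4G. SEMA4G shares 22.3% of its exon bases with MRPL43 on the opposite strand, and the sources used here do not say whether counting used the strand.

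SEMA4D, the ligand of plexin B1, had 1.82, 1.61 and 1.64 FPKM with empty vector and 1.94, 1.82 and 1.76 FPKM in the O/E-labelled libraries. The groups overlapped, and the log2 change was 0.08, with a limma adjusted p of 0.444. SEMA4A, known for its part in immune cells, was at 3.26 ± 0.35 and 3.21 ± 0.20 FPKM (SD of 3 libraries each). Of the 4 class 6 semaphorins, SEMA6B alone reached the filter, at 1.02 ± 0.10 and 1.00 ± 0.19 FPKM. SEMA6C was at 0.971 ± 0.115 and 0.916 ± 0.124 FPKM, SEMA6A at 0.817 ± 0.089 and 1.01 ± 0.03 FPKM, and SEMA6D at 0.196 ± 0.069 and 0.234 ± 0.016 FPKM. SEMA7A, which is lipid-anchored and binds plexin C1, had 0.488, 0.316 and 0.483 FPKM with empty vector. It had 0.988, 0.868 and 0.857 FPKM in the O/E-labelled libraries, so the groups did not overlap, on 131 and 354 reads.

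Summed over the 19 semaphorins, the level was 67.0, 71.1 and 73.5 FPKM with empty vector and 87.6, 79.5 and 86.3 FPKM in the O/E-labelled libraries. Of this sum SEMA3F held 24.7% ± 0.24 and 21.9% ± 0.95, and SEMA3B 13.3% ± 0.59 and 8.47% ± 0.96 (± SD, n = 3). SEMA3A held 3.52% ± 0.096 and 5.8% ± 0.87, and SEMA5B 1.53% ± 0.31 and 4.03% ± 0.30. Taken singly, each of the 7 semaphorins that rose was a smaller part of the total than SEMA3F in both groups. SEMA4B, the highest of them, held 8.77% ± 0.59 with empty vector and 11.1% ± 0.38 in the O/E-labelled libraries.

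**Figure D2:**
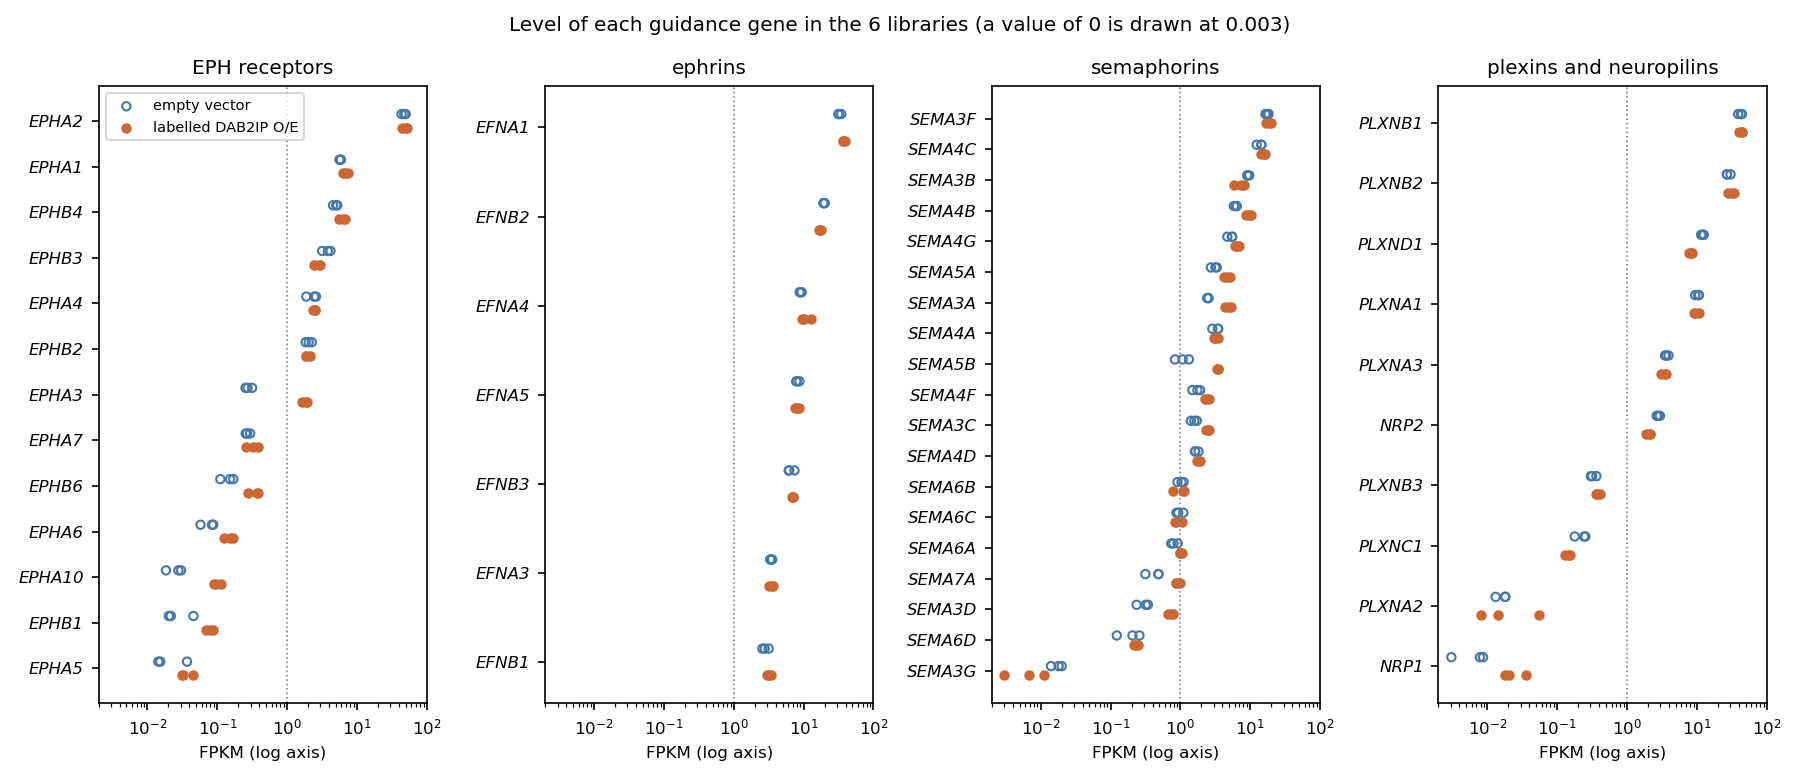
FPKM of the 49 genes in each library on a log axis, in 4 panels by role, with open points for empty vector and filled points for the O/E-labelled libraries. The dotted line marks the filter of 1 FPKM; EPHA2, EFNA1, SEMA3F and PLXNB1 lead their panels in both groups, and the points of EPHA3 lie on either side of the line.

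Among the semaphorin receptors, the B-class plexins PLXNB1 and PLXNB2 had the highest levels and did not pass. PLXNB1, which binds SEMA4D, had 39.1, 42.8 and 44.3 FPKM with empty vector and 45.0, 39.5 and 45.0 FPKM in the O/E-labelled libraries. PLXNB2, which binds SEMA4C, had 26.8, 27.1 and 30.3 FPKM against 34.1, 28.1 and 31.3 FPKM. Both pairs of groups overlapped, with log2 changes of 0.04 and 0.14 and limma adjusted p-values of 0.749 and 0.250. PLXNB1 held 42.3% ± 1.5 and 43.9% ± 0.86 of the summed FPKM of plexins and neuropilins, and PLXNB2 28.2% ± 0.71 and 31.6% ± 0.86 (± SD, n = 3).

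PLXND1, the plexin of vessel patterning and a receptor for SEMA3C, had 12.2, 11.5 and 12.6 FPKM with empty vector. It had 8.60, 7.76 and 8.36 FPKM in the O/E-labelled libraries, all below the empty vector values. The gene lies at chr3:129555175-129606818 on the minus strand. The means differed 1.47-fold, on 8312 and 7242 reads, and the log2 change was −0.50 (SE 0.06, limma adjusted p 0.00239). NRP2, the neuropilin that serves class 3 semaphorins and VEGF-C, had 2.96, 2.78 and 2.66 FPKM with empty vector and 1.87, 2.15 and 2.14 FPKM in the other group. The groups did not overlap, and the log2 change was −0.32 (SE 0.07, limma adjusted p 0.0206). That call was lost without the first or the second empty vector library, at limma adjusted p-values of 0.0505 and 0.0657, and without the first or the third O/E-labelled library, at 0.0642 and 0.0631. Its adjusted p ranged from 1.11e-05 to 0.0657 over all alternatives.

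NRP1, the co-receptor through which SEMA3A is best known to act, was close to 0. It had 2, 2 and 1 reads in the empty vector libraries and 15, 6 and 6 in the O/E-labelled ones, or 0.00306 to 0.00870 and 0.0180 to 0.0362 FPKM. PLXNA1, a signalling partner of neuropilins, had 10.4, 9.46 and 10.8 FPKM with empty vector and 10.9, 9.04 and 9.55 FPKM in the other group, with overlap. PLXNA3 was at 3.69 ± 0.22 and 3.38 ± 0.29 FPKM (SD of 3 libraries each) and overlapped too. Their log2 changes were −0.05 and −0.10, with limma adjusted p-values of 0.669 and 0.352. PLXNC1, the receptor of SEMA7A, had 0.253, 0.243 and 0.178 FPKM with empty vector and 0.129, 0.147 and 0.153 FPKM in the other group, without overlap. PLXNB3, the receptor of SEMA5A, was at 0.329 ± 0.032 and 0.383 ± 0.027 FPKM, and PLXNA2 at 0.0164 ± 0.0028 and 0.0259 ± 0.0256 FPKM. The last spread comes from 22 reads of PLXNA2 in the second O/E-labelled library, against 4 and 5 in the others.

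**Figure D3:**
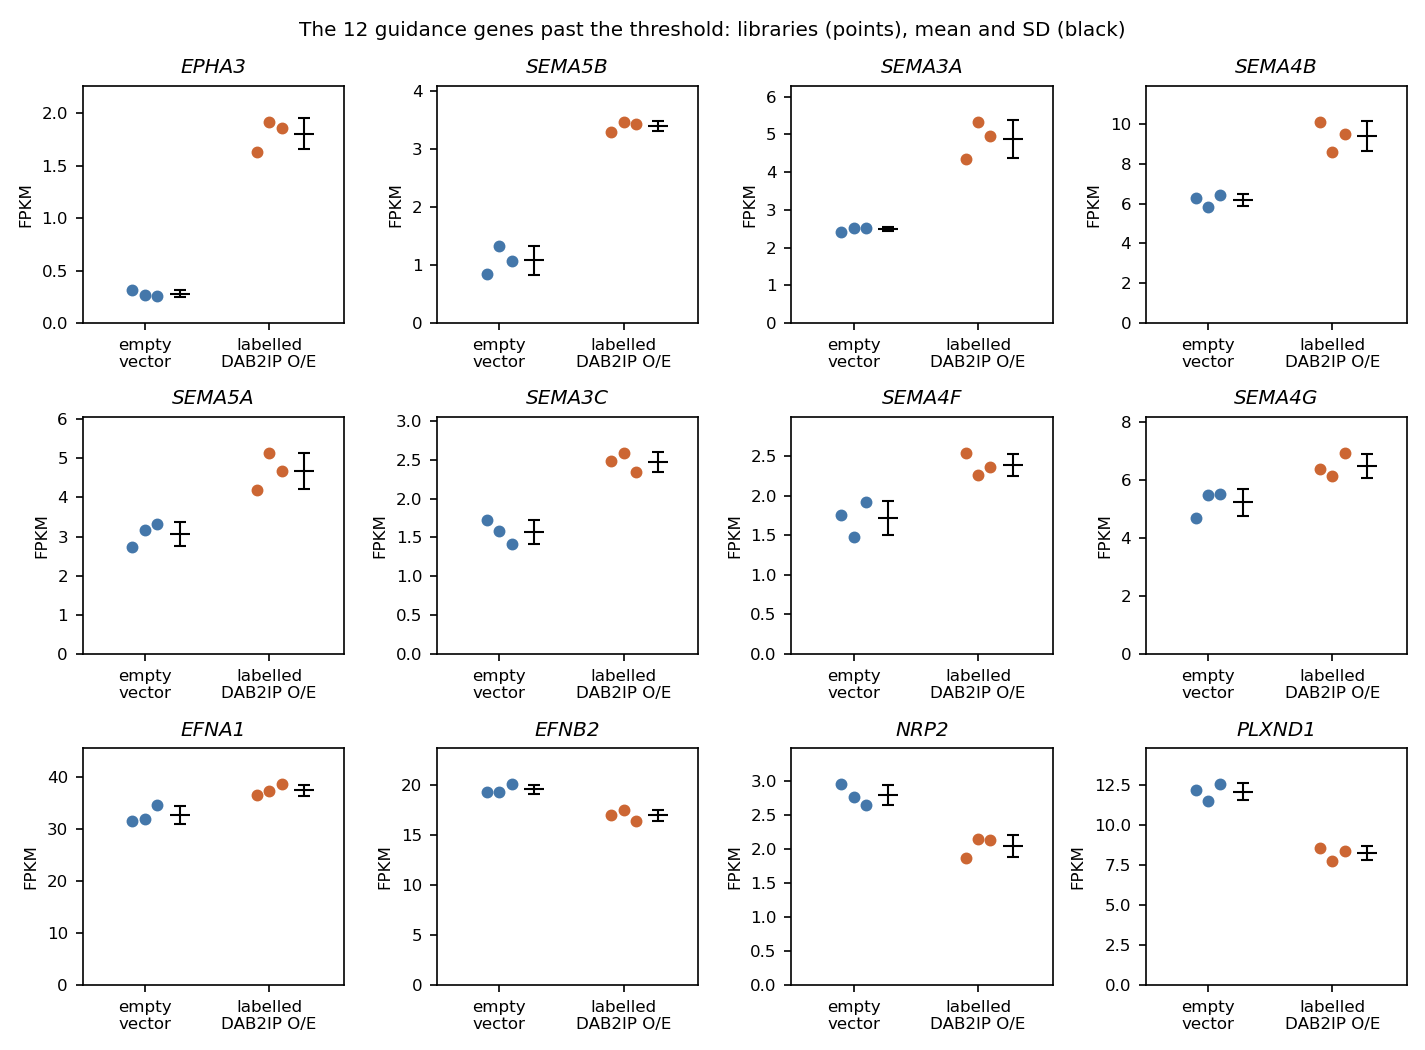
FPKM (y axis, from 0) of the 12 genes that passed, with a point per library and the mean and SD of 3 libraries in black. In each panel the points of one group lie wholly above those of the other; EPHA3, SEMA5B and SEMA3A show the widest gaps relative to their level.

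All 7 ephrins measured were above the filter, and EFNA1 had the highest level. EFNA1, the main ligand of EPHA2, had 31.4, 31.9 and 34.6 FPKM with empty vector and 36.5, 37.2 and 38.6 FPKM in the O/E-labelled libraries. The groups did not overlap, and the log2 change was 0.19 (SE 0.05, limma adjusted p 0.0407). EFNB2, the membrane-spanning ligand of EPHB4, had 19.3, 19.4 and 20.1 FPKM with empty vector and 17.1, 17.5 and 16.4 FPKM in the other group. Here too the groups did not overlap, and the log2 change was −0.20 (SE 0.05, limma adjusted p 0.0272). Both changes were small, at 1.15-fold, and their calls depended on single libraries. EFNA1 did not pass without the first or second empty vector library, at 0.0860 and 0.133, or without any 1 of the O/E-labelled libraries, at 0.0809, 0.0811 and 0.151 (limma adjusted p). It was 0.0639 with equal library medians, 0.0570 without the filter on low levels and 0.0591 without the variance trend, and over all alternatives it ranged from 0.0229 to 0.151. EFNB2 did not pass without the second or the third empty vector library, at 0.0817 and 0.0633, or without the first or the third O/E-labelled library, at 0.0720 and 0.118 (limma adjusted p). Its adjusted p ranged from 0.0119 to 0.118 over all alternatives. EFNB2 shares 26.2% of its exon bases with AL138689.2 on the opposite strand.

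The other ephrins did not pass. EFNA4 had 9.36, 9.12 and 8.77 FPKM with empty vector and 12.6, 9.37 and 10.3 FPKM in the O/E-labelled libraries. Those values did not overlap, though the lowest of the second group nearly met the highest of the first, and the limma adjusted p was 0.165. EFNA5, a lipid-anchored ligand of EPHA3, had 8.71, 7.996 and 7.84 FPKM against 7.60, 8.56 and 8.04 FPKM, and the groups overlapped. EFNB3 was at 6.58 ± 0.72 and 6.99 ± 0.16 FPKM, and EFNB1 at 2.84 ± 0.30 and 3.23 ± 0.23 FPKM (SD of 3 libraries each). EFNA3 was at 3.42 ± 0.12 and 3.48 ± 0.21 FPKM. EFNA3 and EFNA4 share 44.7% and 14.96% of their exon bases with AL691442.1 on the same strand, so how their shared reads were assigned is uncertain. Summed, the A-class ephrins were at 53.3 ± 1.2 and 59.7 ± 0.88 FPKM and the B-class ephrins at 29 ± 0.66 and 27.2 ± 0.55 FPKM (SD of 3 libraries each).

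EPHA2, an EPH receptor often abundant in epithelial tumours, led the receptors by a wide margin. It had 49.8, 43.5 and 47.5 FPKM with empty vector and 52.8, 44.0 and 50.02 FPKM in the O/E-labelled libraries. The groups overlapped, and the log2 change was 0.06 (SE 0.08, limma adjusted p 0.634). EPHA2 held 70.5% ± 1.5 of the summed FPKM of EPH receptors with empty vector and 68.0% ± 0.68 in the O/E-labelled libraries (± SD, n = 3). The next in order were EPHA1, EPHB4 and EPHB3.

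EPHA3, a receptor with a high affinity for ephrin A5, showed the largest relative rise of the 33 genes tested. It had 0.315, 0.272 and 0.254 FPKM with empty vector and 1.63, 1.91 and 1.86 FPKM in the O/E-labelled libraries. The gene lies at chr3:89107524-89482134 on the plus strand. No value of one group came near the other, and the means differed 6.43-fold, on 130 reads with empty vector and 1073 with the O/E label. The log2 change of FPKM + 1 was 1.13 (SE 0.08, limma adjusted p 0.000341). The pseudocount shrinks the change of so weak a gene, and limma-voom on the recovered reads gave a log2 change of 2.68. EPHA3 reached the filter of 1 FPKM only through the libraries in which it was high. Its call and its place in the count are thus no support for a change of these genes. Even in the O/E-labelled libraries EPHA3 held 2.53% ± 0.41 of the summed FPKM of EPH receptors (SD, n = 3).

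EPHB4 and EPHB3 leaned in opposite directions and missed the threshold narrowly. EPHB4, the receptor of ephrin B2, had 5.04, 4.54 and 5.22 FPKM with empty vector and 6.84, 5.56 and 6.25 FPKM in the O/E-labelled libraries. EPHB3, a receptor of B-class ephrins known from intestinal crypts, had 3.17, 3.82 and 4.17 FPKM against 2.96, 2.44 and 2.86 FPKM. Neither pair of groups overlapped. The log2 changes were 0.28 (SE 0.08) and −0.33 (SE 0.10), with limma adjusted p-values of 0.0506 and 0.0538. Both passed in limma-voom on the recovered reads, with adjusted p-values of 0.0101 and 0.00953. Over all alternatives the adjusted p ranged from 0.00398 to 0.146 for EPHB4 and from 0.00448 to 0.140 for EPHB3.

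EPHA1, among the first EPH receptors cloned, had 5.90, 5.63 and 5.73 FPKM with empty vector and 7.46, 6.21 and 6.69 FPKM in the O/E-labelled libraries, without overlap. Its log2 change was 0.20 (SE 0.07, limma adjusted p 0.0775), and the adjusted p ranged from 0.0391 to 0.192 over all alternatives. EPHA4, which binds ephrins of both classes, was at 2.30 ± 0.37 and 2.44 ± 0.07 FPKM, and EPHB2, a receptor of B-class ephrins, at 2.04 ± 0.21 and 1.94 ± 0.14 FPKM (SD of 3 libraries each). Both pairs of groups overlapped, with limma adjusted p-values of 0.659 and 0.683.

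The other 6 EPH receptors lay below the filter and are given by level. EPHB6, a receptor without kinase activity, had 0.169, 0.111 and 0.152 FPKM with empty vector and 0.376, 0.273 and 0.380 FPKM in the O/E-labelled libraries, on 54 and 165 reads. EPHA10, likewise lacking kinase activity, had 3, 5 and 7 reads with empty vector and 28, 21 and 23 in the other group. EPHB1 had 3, 7 and 4 reads against 20, 14 and 15, and EPHA6 had 11, 8 and 15 against 34, 31 and 20. Scaled for depth, their mean levels were 0.0255 and 0.0989 FPKM for EPHA10, 0.0292 and 0.0784 FPKM for EPHB1, and 0.0765 and 0.149 FPKM for EPHA6. In these 4 genes the FPKM of the groups did not overlap. EPHA7 was at 0.273 ± 0.021 and 0.324 ± 0.066 FPKM and EPHA5 at 0.0222 ± 0.0127 and 0.0364 ± 0.0077 FPKM (SD of 3 libraries each), and both overlapped. Of all 16 guidance genes below the filter, 8 were higher without overlap in the O/E-labelled libraries and 2 lower, and the groups overlapped in the other 6. The share higher without overlap was 11.4% of all genes below the filter and 19.4% of the protein-coding ones, and the share lower was 10.6% and 11.1%. Of the 33 genes tested, 12 were higher and 5 lower without overlap. Of all genes tested, 19.5% were higher and 20.9% lower without overlap, 40.4% in all.

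When limma-voom was run on the recovered reads, 45 of the 49 genes were tested, and 18 rose and 6 fell. Of all genes so tested, 23.2% passed. The 12 calls made on FPKM were all among these 24. The 12 further genes were EPHA1, EPHA6, EPHA10, EPHB1, EPHB3, EPHB4, EPHB6, PLXNC1, SEMA3B, SEMA3D, SEMA6A and SEMA7A. EPHA10 and EPHB1 had the 10 reads needed for this test only in the O/E-labelled libraries, in which they were high. Their place among the 18 that rose is therefore no support for a change of the set. An adjusted p-value stood in the authors' deposited table for 47 of the 49 genes, of which 15 passed as higher with the O/E label and 5 as lower. Of all genes with an adjusted p in the authors' deposited table, 19.0% passed, 9.73% upward. All 12 genes called on FPKM were among the 20 called in the authors' deposited table, which rests on the same 6 libraries. EPHA3 and EPHA10, weak with empty vector, were among the 15 higher ones, and their place there is no support for a change of the set. The authors' deposited table gave EPHA3 a log2 change of 2.69, SEMA5B 1.65, SEMA3A 0.97 and SEMA3D 1.27 as O/E-labelled over empty vector, and PLXND1 −0.55.

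Guidance genes were compared with their chromosomal neighbours by the median log2 change of the other tested genes in the same 10 Mb. For the 12 genes that passed, these medians lay between −0.20 and 0.10, over 9 to 167 neighbours. Each of the 12 lay farther from 0 than its neighbours' median. Genes picked for passing are likely to do so, and no conclusion is drawn from it. The medians had the same sign as the gene in 6 of the 12. SEMA5B and PLXND1 lie in the same 10 Mb of chromosome 3, from 120 to 130 Mb, where the median of 80 other genes was −0.20. SEMA5B rose by 1.09 there, PLXND1 changed by −0.50, and PLXNA1, in the same stretch, by −0.05. EFNA1, EFNA3 and EFNA4 lie together on chromosome 1, between 150 and 160 Mb, where 167 other genes had a median of 0.09. The part of these neighbourhoods in the changes of EFNA1 and PLXND1 was not tested.

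**Figure D4:**
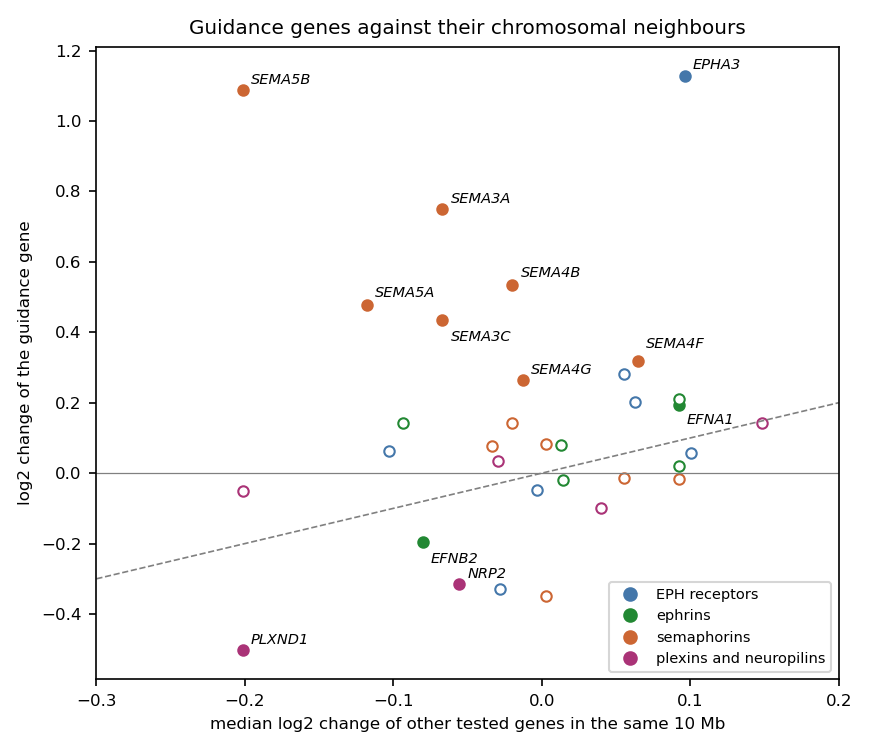
Log2 change of each of the 33 genes tested (y axis) against the median log2 change of the other tested genes in the same 10 Mb (x axis), with filled points for genes that passed and the dashed line at equality. SEMA5B and PLXND1 share a median of −0.20 and lie on opposite sides of 0.

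Genes that relay EPH and plexin signals were also counted. Of 70 listed effectors and co-receptors, 58 were tested, of which 6 rose, 12 fell and 40 did not pass. Thus 31.0% passed, against 18.5% of all genes tested and 19.9% of the protein-coding ones. The median log2 change of the 58 was −0.02. The lowest adjusted p was that of ARHGAP35, a GTPase-activating protein for RHOA, which fell from 15.4 ± 0.34 to 9.81 ± 0.43 FPKM (SD of 3 libraries each), by −0.60 on the log2 scale (limma adjusted p 0.000746). YES1, a kinase of the SRC family, fell from 108 ± 5.2 to 73.6 ± 3.6 FPKM, and NCK1, an adaptor that binds EPH receptors, from 21.1 ± 1.11 to 15.8 ± 1.32 FPKM. PAK1, a kinase activated by RAC1, rose from 41.9 ± 0.745 to 55.9 ± 1.4 FPKM, and RHOD, a small GTPase that binds plexins, from 4.62 ± 0.123 to 6.83 ± 0.9 FPKM. PTK7, a receptor-like protein without kinase activity, rose from 7.83 ± 0.41 to 10.4 ± 0.37 FPKM. YES1 and NCK1 lie where the median neighbour changed by −0.29 and −0.27, and PAK1 and RHOD where it changed by 0.16 and 0.17. The count of 18 fell to 6 without the first and to 6 without the third O/E-labelled library, to 11 without the second, and to 7 without the second empty vector library. Over all genes tested, the 2725 calls fell in the same fits to 1309, 971, 1997 and 1214. With a filter of 5 FPKM, 17 of 42 effectors and co-receptors passed, where 24.9% of all genes did.

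Of 34 listed genes of the netrin, slit, repulsive guidance molecule and related systems, 10 were tested, of which 3 rose, 1 fell and 6 did not pass. Of all genes tested, 9.29% rose and 9.17% fell, 18.5% in all. The median log2 change of the 10 genes was −0.02. RGMB, a repulsive guidance molecule and BMP co-receptor, rose from 5.45 ± 0.27 to 8.55 ± 0.20 FPKM, and NTN1, which encodes netrin 1, from 18.3 ± 1.44 to 25.2 ± 0.799 FPKM (SD of 3 libraries each). NTN4, a further netrin, rose from 2.25 ± 0.08 to 3.07 ± 0.15 FPKM. UNC5B, a netrin receptor, fell from 1.59 ± 0.115 to 0.563 ± 0.101 FPKM. It reached the filter of 1 FPKM only through the empty vector libraries, in which it was high, so its call and its place in the count are no support for a change of this list. The limma adjusted p was 0.00125 for RGMB, 0.00511 for NTN1, 0.0123 for NTN4 and 0.00239 for UNC5B. The count of 4 was 3 without the third O/E-labelled library, where NTN4 did not pass and the calls over all genes fell from 2725 to 971. In limma-voom 10 of 19 genes of this list passed, where 23.2% of all genes did. Of 19 genes with an adjusted p in the authors' deposited table, 10 passed, against 19.0% of all its genes. ROBO2 was among the 10 in both, at a mean of 0.0308 FPKM with empty vector and 0.176 FPKM in the O/E-labelled libraries. It may have had the reads needed only in the latter, so its place is no support for a change of this list.

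The label of the cells was checked against marker genes. All 10 epithelial and ovarian cancer markers, among them EPCAM, PAX8, WT1 and MUC16, reached a mean of 1 FPKM, and their sum ran from 841 to 906 FPKM with empty vector and from 1138 to 1195 FPKM in the O/E-labelled libraries. The extraction protocol names adipocytes, but 0 of 10 adipocyte markers reached 1 FPKM, with sums of 1.30 to 1.66 and 0.946 to 1.74 FPKM, and ADIPOQ, LEP and FABP4 were not listed in the table. One of 10 fibroblast, 1 of 10 leukocyte and 1 of 10 endothelial markers did (COL1A1, CD68 and ERG). Their lists summed to 2.03 to 2.40, 1.59 to 2.104 and 2.37 to 2.40 FPKM with empty vector, and to 2.16 to 2.58, 1.30 to 1.96 and 2.39 to 2.60 FPKM in the O/E-labelled libraries. Since many guidance genes are also expressed in neurons, neuronal markers were measured, and TUBB3 and MAP2 were the 2 of 10 that reached 1 FPKM. Their list summed to 4.95 to 6.11 FPKM with empty vector and 7.17 to 8.12 FPKM in the O/E-labelled libraries, and its part in the guidance gene changes was not tested.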

How the data were processed

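Of the OVCAR3 libraries, 3 carry the empty vector in their title and 3 the DAB2IP O/E vector, and groups follow those titles. A stranded poly-A kit was used, per the labels' protocols. The authors deposited FPKM for each gene and library. The second table, per the file headers, gives a mean of size-factor-scaled counts (a signal), the authors' log2 fold change and its SE, the authors' score for the test, and the authors' p-value, raw and adjusted. The submitters' processing notes list Trimmomatic 0.32, TopHat2 2.1.1, Bowtie, R 3.3.1 and DESeq2 1.12.4, and the builds GRCh38.p5 and hg19, all without roles. The sources used here do not give the counting tool or its strand setting. Identifiers of 25344 genes matched GENCODE release 29 in version and position, so positions are in GRCh38. The authors' log2 fold change put empty vector over the O/E-labelled group, judged by the FPKM, and its sign was turned.

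Tests used limma 3.58.1 in R 4.3.3 (eBayes with a trend, 2-sided, vector as the sole term) on log2(FPKM + 1). Genes with a mean under 1 FPKM were left out, and the Benjamini-Hochberg adjustment ran over the other 14761, with a threshold of 0.05. The pseudocount makes changes of weak genes look smaller. Means, SDs and folds are of plain FPKM. Whole reads were recovered by scaling FPKM with the authors' deposited mean counts, and 100% of values came within 0.001 of a whole number. These reads were also tested with limma-voom after trimmed-mean scaling, for genes with at least 10 reads in 3 libraries. Few reads limit the precision of weak genes, and reads are not independent molecules. No libraries were duplicates. The fits were tested on simulated data.

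Named were DAB2IP, all members, and up to 6 genes of each other list with the lowest adjusted p. Per-library values were given for members past the threshold and the 12 with the highest mean, and for some others after their values were seen. Members and lists were chosen with earlier results of these data known. Alternatives were pseudocounts of 0.1 and 0.5, a filter of 5 FPKM or none, upper-quartile scaling, equal library medians, no trend, a robust trend, a term for the replicate number, each library left out, limma-voom, and the authors' deposited calls.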

Additional observations from a re-analysis of the deposited data

How the results depend on the processing

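EPHA3, SEMA5B, SEMA3A, PLXND1, SEMA4B, SEMA3C and SEMA5A, 7 of the 12 genes that passed, kept their direction and passed under every alternative in which they were tested. Of these 7, EPHA3 had reached the filter of 1 FPKM only through the O/E-labelled libraries. NRP2, EFNB2, SEMA4F, EFNA1 and SEMA4G kept their direction. Leaving out 1 library at a time gave 971 to 2744 changed genes in all, 7 to 11 guidance genes, 6 to 14 effectors and co-receptors and 3 to 5 genes of other guidance systems. The count over all genes was 971 without the third O/E-labelled library, 1309 without the first, and 1214 when the second empty vector library was left out. From the recovered reads limma-voom called 4476 genes in all, 24 guidance genes and 10 genes of other guidance systems. The authors' deposited table called 20 guidance genes and 10 genes of other guidance systems. A filter of 5 FPKM left 17 guidance genes tested and 7 called, with 24.9% of all genes called. With equal library medians 40.86% of all changed genes were higher, against 50.31% otherwise. Among genes that did not pass, the log2 change of EFNA3 turned to −0.0034 with equal library medians. With single libraries left out the log2 change ran from −0.0058 to 0.0583 for EFNA3, −0.0572 to 0.0223 for EFNA5, −0.0329 to 0.12 for EPHA4, −0.0974 to 0.00085 for EPHB2, −0.12 to 0.0012 for PLXNA1, −0.0144 to 0.0964 for PLXNB1, −0.0863 to 0.0203 for SEMA4A and −0.064 to 0.065 for SEMA6B. The cause was not tested.

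With a replicate block the counts were 2393 genes in all, 12 guidance genes (10 of them shared with the fit without it), 14 effectors and co-receptors and 4 genes of other guidance systems. EFNB2 and SEMA4G lost their calls there, at limma adjusted p-values of 0.0554 and 0.0504. Their adjusted p ran from 0.0119 to 0.118 and from 0.0082 to 0.153 over all alternatives. Same-numbered libraries deviated from their group means with correlations of 0.12, 0.0992 and 0.0576, and all 6 libraries correlated best with their own number, a hint from the data and not a stated pairing.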
